A study of Mus musculus with 24 samples.

Results

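The genes described here are 9 that changed in opposite directions when mouse embryonic stem cells (ESCs) were converted to L-EPSCs, 1 of the expanded potential stem cell (EPSC) types, in the J1 line and in the tet-off lines. They are Crxos, Spic, Ly6a, AI662270, Ptgs1, Nt5e, Enox1, Robo4 and Ina, matched by gene symbol, and they are 9 of the 22233 genes listed in both deposited tables. They were chosen by their fold changes from ESCs to L-EPSCs in J1 and in each tet-off line, so those fold changes are given below as a description without a test. Poly(A) RNA was measured in 24 libraries, 2 for each of 12 groups. Wild-type J1 cells, an established mouse ESC line, were sampled untreated as ESCs (serum, LIF, CHIR99021 and PD0325901), as D-EPSCs (N2B27 with KSR, LIF, CHIR99021, dimethindene maleate and minocycline) and as L-EPSCs (KSR, LIF, CHIR99021, PD0325901, XAV939 and inhibitors of Src-family kinases, JNK and p38). The 3 tet-off knock-in lines, ZHBTc4 for Oct4, 2TS22C for Sox2 and NgcKO for Nanog, lack the endogenous gene and carry a transgene of it that doxycycline (Dox) switches off, so untreated cells also live on the transgene. Each was sampled without Dox in both states and, as L-EPSCs, also under Dox, and each is a single established line. The ESC medium is given for J1, and a separate one for the tet-off ESCs is not given in the sources used here.

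The 9 genes come from unrelated families. Crxos encodes a homeodomain protein of early embryos, Spic an Ets family transcription factor known from red pulp macrophages, and Ly6a the surface protein Sca-1, a marker of blood stem cells that fibroblasts and endothelial cells also carry. Nt5e encodes CD73, the ectonucleotidase that makes adenosine from AMP, and Ptgs1 encodes cyclooxygenase 1, which starts prostanoid synthesis from arachidonic acid. Enox1 encodes a cell surface oxidase, Robo4 a roundabout receptor of endothelial cells, and Ina alpha-internexin, an intermediate filament protein of neurons. AI662270 is annotated as a processed transcript without a protein product.

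In the NCBIM37 build, on which reads were counted, the 9 genes lie on 8 chromosomes, with Nt5e and Robo4 both on chromosome 9. Crxos (ENSMUSG00000074365, named Crxos1 in that annotation) spans chr7:16467966-16489379, Spic (ENSMUSG00000004359) chr10:88137517-88147760, Ly6a (ENSMUSG00000075602) chr15:74825308-74828064 and AI662270 (ENSMUSG00000087107) chr11:83037078-83040106. Ptgs1 (ENSMUSG00000047250) spans chr2:36085946-36107792, Nt5e (ENSMUSG00000032420) chr9:88222447-88266927, Enox1 (ENSMUSG00000022012) chr14:77556623-78121214, Robo4 (ENSMUSG00000032125) chr9:37209482-37221608 and Ina (ENSMUSG00000034336) chr19:47089188-47099817. Spic and Ly6a are on the minus strand and the other 7 on the plus strand. Ina overlaps Nt5c2 on the other strand, Enox1 overlaps 4 small annotated genes, and the other 7 overlap no annotated gene. The strand setting of the read counting is not given in the sources used here, so reads of Ina and Nt5c2 in their overlap cannot be told apart. Whatever that setting, reads of Ly6a could be shared with its close Ly6 relatives.

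The 250 bases before the annotated start were read from RefSeq promoters of GRCm38.p6, which hold 9 starts for 7 of the 9 genes. Ly6a and AI662270 have no entry. The 7 genes did not share a promoter type. Nt5e, Enox1 and Ina had 21, 33 and 25 CG dinucleotides in this window, and 14.8%, 3.53% and 9.59% of the 32851 promoters held more. Spic had 1, Robo4 2, Ptgs1 5 and the 3 starts of Crxos 0 to 3, against a median of 6 over all promoters. The sequences below show this contrast, with CG dinucleotides in capitals, each on the strand of its gene. They lie at chr10:88683024-88683273 (minus strand) for Spic, chr9:37401722-37401971 for Robo4, chr14:77156513-77156762 for Enox1 and chr19:47014431-47014680 for Ina (plus strand).
Spic: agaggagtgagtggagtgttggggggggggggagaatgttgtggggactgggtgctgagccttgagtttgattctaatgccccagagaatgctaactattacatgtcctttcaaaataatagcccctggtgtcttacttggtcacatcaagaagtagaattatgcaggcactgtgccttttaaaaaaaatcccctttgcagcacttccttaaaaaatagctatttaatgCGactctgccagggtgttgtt
Robo4: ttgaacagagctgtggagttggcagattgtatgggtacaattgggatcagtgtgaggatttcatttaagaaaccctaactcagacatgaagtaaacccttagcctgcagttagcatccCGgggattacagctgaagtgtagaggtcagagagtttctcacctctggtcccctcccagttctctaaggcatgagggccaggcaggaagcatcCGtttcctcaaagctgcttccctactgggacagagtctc
Enox1: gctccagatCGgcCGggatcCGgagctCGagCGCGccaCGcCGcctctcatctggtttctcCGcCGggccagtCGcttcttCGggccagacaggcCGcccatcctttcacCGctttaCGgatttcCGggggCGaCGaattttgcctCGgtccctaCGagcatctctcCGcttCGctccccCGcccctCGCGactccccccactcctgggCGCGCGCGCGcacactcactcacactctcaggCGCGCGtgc
Ina: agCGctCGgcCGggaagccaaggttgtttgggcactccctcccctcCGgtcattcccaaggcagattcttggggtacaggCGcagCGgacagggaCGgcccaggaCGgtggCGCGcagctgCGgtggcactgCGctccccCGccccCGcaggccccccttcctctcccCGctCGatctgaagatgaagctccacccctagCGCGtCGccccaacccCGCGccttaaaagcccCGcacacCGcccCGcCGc
Both strands of the 9 windows were searched for the letters of an octamer (ATGCAAAT), a Sox site (CATTGTT), an Esrrb site (TCAAGGTCA), a Klf site (GGGCGGG), an Ets site (CCGGAAG), an AP-1 site (TGANTCA) and a TATA box (TATAAA). The Klf letters, which contain a CG, were in 4 of the 9 windows (the second start of Crxos, Nt5e, Enox1 and Ina) and in 23.4% of all promoters. None of the other 6 motifs was in the 9 windows, and they were in 1.6% (octamer), 3.29% (Sox), 0.387% (Esrrb), 6.91% (Ets), 6.75% (AP-1) and 12.4% (TATA) of all promoters.

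The deposited values are gene counts divided by the size factor of each library, called normalized counts here, and the 2 tables (6 J1 and 18 tet-off libraries) were normalized separately. The libraries held 10807631 to 15069899 reads on genes, so 1 normalized count was close to 1 read. The targeted gene followed the labels: Dox lowered Oct4 (Pou5f1) from 6316 and 6420 to 162 and 184 normalized counts in the Oct4 line, Sox2 from 4701 and 4966 to 47.0 and 53.2 in the Sox2 line, and Nanog from 8847 and 9119 to 3112 and 3166 in the Nanog line. In the Oct4 line Dox also lowered Sox2 from 5483 and 5480 to 260 and 230. Nanog went there from 7424 and 7636 to 691 and 726. In the Sox2 line Oct4 fell from 8221 and 8490 to 3291 and 3073, and Nanog from 7883 and 7557 to 654 and 733. In the Nanog line Oct4 went from 10950 and 10880 to 8380 and 7726, and Sox2 from 4850 and 4848 to 3940 and 3895. The Dox response of a line thus cannot be assigned to 1 factor. All 18 pluripotent stem cell markers were above 1 RPM, reads per megaread counted on genes, in every untreated group. Whether the 2 replicates of a group are separate derivations is not given, so p-values measure the spread between these samples, and for a single gene an exact two-sided permutation test of 2 against 2 libraries cannot go below p = 0.333. In bulk RNA, fewer cells with a transcript and less of it per cell cannot be told apart.

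Crxos, Spic, Ly6a and AI662270 were lower in L-EPSCs than in ESCs of J1, and higher in L-EPSCs than in ESCs of all 3 tet-off lines. Crxos had 1130 and 1221 normalized counts in J1 ESCs and 76.1 and 94.2 in J1 L-EPSCs, 13.8-fold lower. In the Oct4 line it went from 111.9 and 112.2 in ESCs to 1265 and 1248 in L-EPSCs, in the Sox2 line from 33.3 and 13.9 to 796 and 748, and in the Nanog line from 9.41 and 3.36 to 76.7 and 84.6. The ESC and L-EPSC libraries did not overlap in any line, and the L-EPSC level in the Nanog line was the lowest of the 3.

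Spic had 427 and 450.0 normalized counts in J1 ESCs and 28.8 and 42.5 in J1 L-EPSCs. It went from 46.0 and 38.7 to 407 and 374 in the Oct4 line, from 12.1 and 14.7 to 239 and 215 in the Sox2 line, and from 17.8 and 28.0 to 164 and 172 in the Nanog line. Spic was thus 12.3-fold lower in J1 L-EPSCs and 7.34-fold (Nanog) to 16.9-fold (Sox2) higher in tet-off L-EPSCs.

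Ly6a, the most abundant of the 9 per exonic base in J1 ESCs, had 2073 and 2117 normalized counts there and 297 and 303 in J1 L-EPSCs. In the Oct4 line 30.3 and 38.7 in ESCs stood against 435 and 437 in L-EPSCs, in the Sox2 line 25.2 and 32.1 against 404 and 513, and in the Nanog line 1.05 and 6.73 against 40.5 and 24.5. The Nanog line held less Ly6a than the other tet-off lines in both states, and its ESC value rests on 1 and 6 reads. AI662270 had 355 and 320 in J1 ESCs and 36.0 and 36.8 in J1 L-EPSCs. Its tet-off ESC values were 5.23 and 2.90 (Oct4), 28.3 and 32.1 (Sox2) and 15.7 and 13.5 (Nanog), and those of L-EPSCs were 125 and 119.5, 259 and 268, and 68.2 and 92.8.

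The other 5 genes, Ptgs1, Nt5e, Enox1, Robo4 and Ina, were higher in L-EPSCs than in ESCs of J1 and lower in all 3 tet-off lines. Enox1 had 161 and 175 normalized counts in J1 ESCs and 1073 and 1063 in J1 L-EPSCs, 6.36-fold higher. Its tet-off ESCs held 294 and 308 (Oct4), 230 and 222 (Sox2) and 516 and 491 (Nanog), and the L-EPSCs only 2.66 and 8.09, 1.08 and 3.99, and 18.1 and 25.5. Enox1 had the largest fall of the 9 genes in the Oct4 and Sox2 lines, with log2 fold changes of −5.71 and −6.14.

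Robo4 rose in J1 from 32.4 and 36.9 to 422 and 446, 12.5-fold. In the Nanog line it went from 41.8 and 21.3 in ESCs to 0 reads in both L-EPSC libraries, so it was at least 10.1-fold lower against a floor of 3 reads per library. It had 121 and 136 against 3.55 and 8.09 in the Oct4 line, and 23.2 and 17.3 against 1.08 and 5.99 in the Sox2 line. Those L-EPSC values rest on 1 to 9 reads per library.

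Ptgs1 rose in J1 from 46.7 and 51.6 to 372 and 399. Its tet-off ESCs held 102.5 and 126 (Oct4), 25.2 and 13.9 (Sox2) and 128 and 175 (Nanog), and their L-EPSCs 0.887 and 5.39, 0 and 0.998, and 8.52 and 11.2. Nt5e rose in J1 from 64.7 and 36.9 to 331 and 386, and it went from 62.7 and 51.3 to 9.76 and 4.49 in the Oct4 line, from 151 and 139.6 to 12.96 and 14.96 in the Sox2 line, and from 113 and 99.8 to 4.26 and 2.04 in the Nanog line. No untreated tet-off L-EPSC library held more than 14.96 normalized counts of either gene. Ina had the smallest changes of the 5 in J1 and in the Nanog line, and it stayed detectable in every library. It rose in J1 from 108 and 137 to 638 and 668, and it fell from 226 and 266 to 22.2 and 18.9 (Oct4), from 269 and 321 to 28.1 and 29.9 (Sox2) and from 381 and 404 to 79.9 and 76.5 (Nanog).

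**Figure D1:**
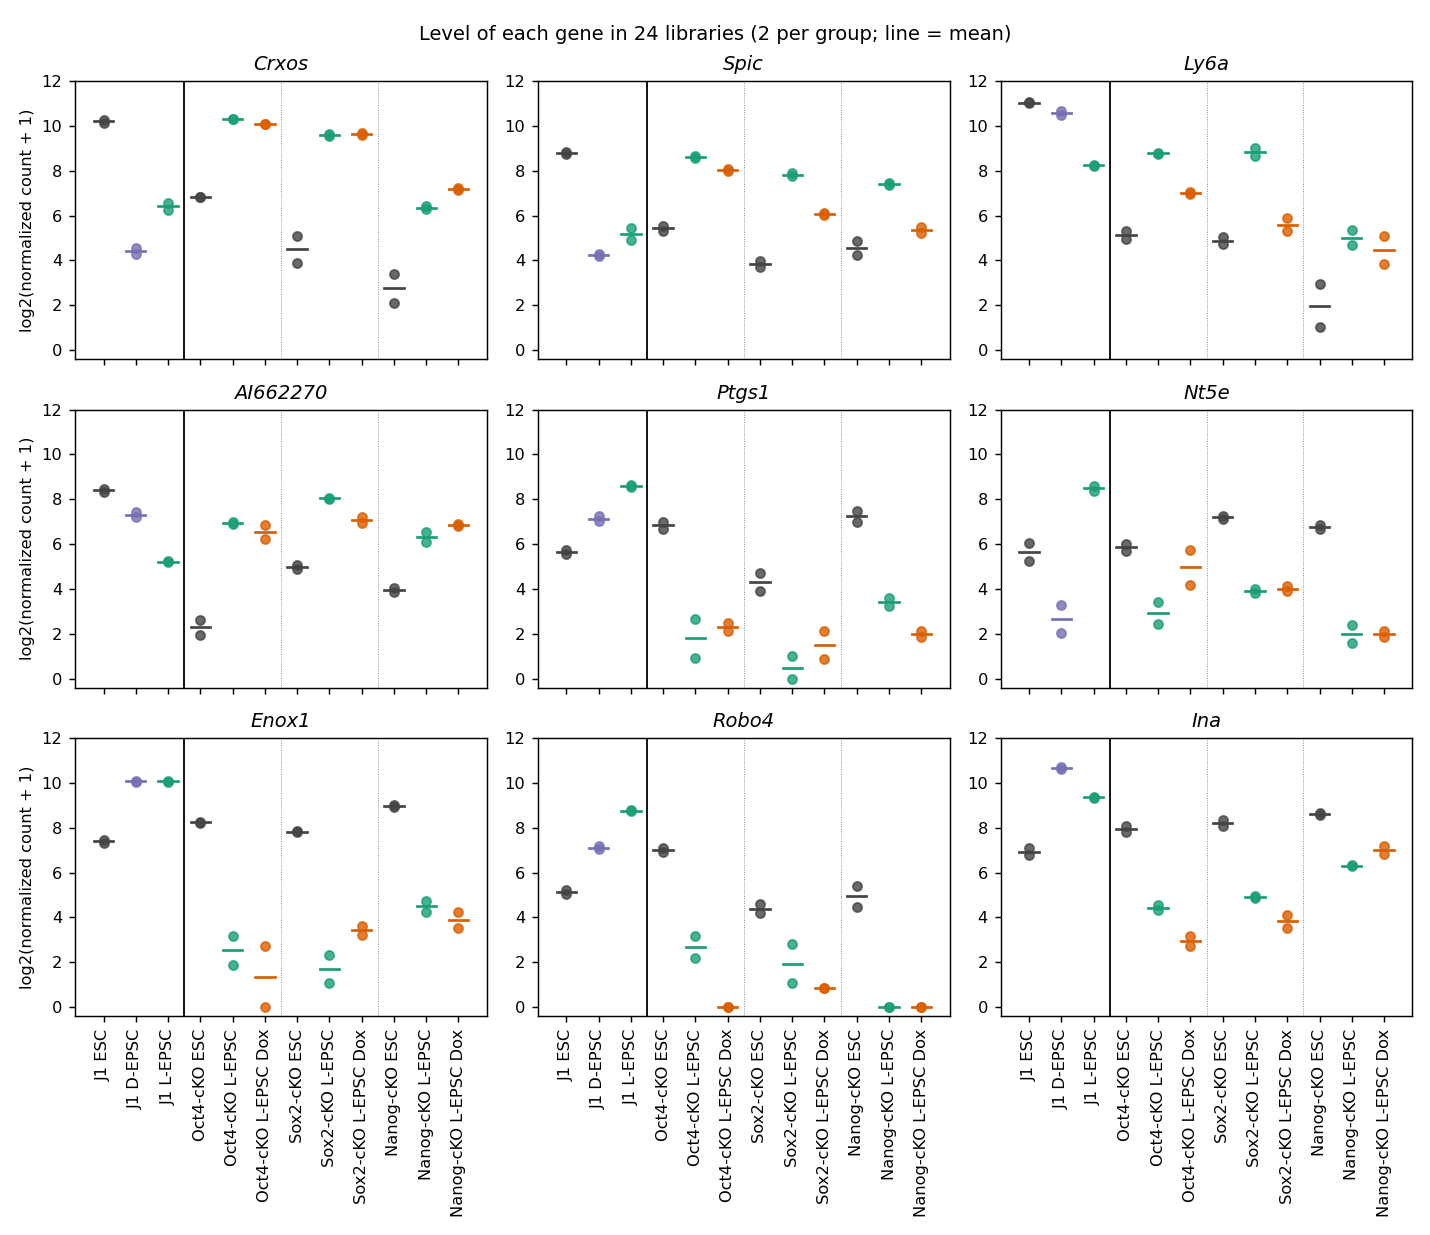
Level of each of the 9 genes as log2(normalized count + 1) in the 24 libraries, 2 points and a line at their mean for each group, with J1 left of the solid line and the tet-off lines right of it (cKO in their names, normalized separately). In the upper 4 genes by order (Crxos, Spic, Ly6a and AI662270) the first J1 group stands above the third, and in each tet-off line the second stands above the first; the other 5 genes show the reverse.

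On the log2(normalized count + 1) scale, which understates changes of low genes, the changes ran from −3.78 (Crxos) to 3.61 (Robo4) in J1, from −5.71 (Enox1) to 4.64 (AI662270) in the Oct4 line, from −6.14 (Enox1) to 5.10 (Crxos) in the Sox2 line and from −4.74 (Nt5e) to 3.60 (Crxos) in the Nanog line, Robo4 with its 0 reads left aside. All 9 genes were past an adjusted p of 0.05 and a log2 fold change of 0.6 in each of the 4 comparisons, where the choice of the genes put them, and 20.3%, 28.4%, 19.6% and 26.9% of all genes tested were past both in J1 and the Oct4, Sox2 and Nanog lines. The opposite pattern as a whole was held by 456 of 20812 genes, or 2.19%, of which 241 were higher and 215 lower in J1 L-EPSCs. Another 248 genes were called in the same direction in all 4 comparisons. Ordered by the smallest of the 4 absolute log2 fold changes, the 9 genes took places from 2 (Crxos, 3.48) to 34 (Ina, 2.31). The list thus has no threshold of its own in this order, and 25 other genes stood above Ina. All 9 averaged 138 or more normalized counts over the J1 libraries, where 290 of the 456 genes averaged 100 or more. Some of the 25 averaged less, such as Xlr4c with 31.3 and Pdyn with 7.27. The ERK feedback gene Spry4, singled out after its value was seen, stood first with 4.74. Just above Ina stood Xlr4b with 2.33, and just below it Crocc2 with 2.28 and Dgkk with 2.27.

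**Figure D2:**
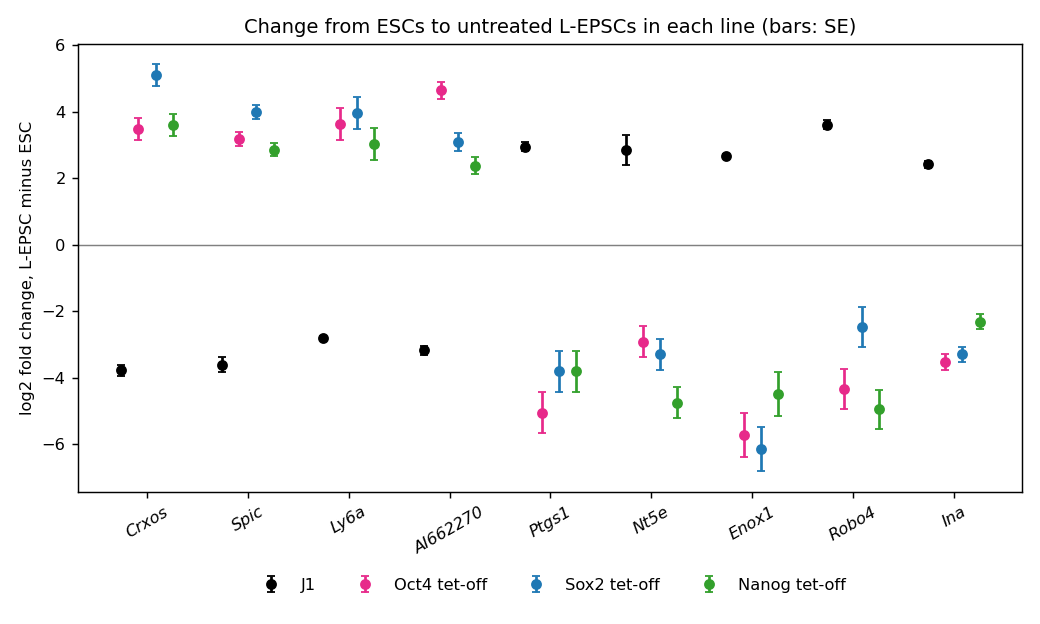
Log2 fold change from ESCs to untreated L-EPSCs for each gene in J1 (black) and the 3 tet-off lines, with bars for the SE of the limma fit. The J1 point lies on the other side of 0 from the 3 tet-off points for all 9 genes, by which they were chosen. The Robo4 point of the Nanog line rests on 0 reads in L-EPSCs and depends on the pseudocount.

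The 2 groups of genes differed in the state in which J1 stood apart from the tet-off lines. These RPM values are set side by side across tables that were processed separately, and they were not tested. In ESCs, Crxos, Spic, Ly6a and AI662270 were all higher in J1 than in any tet-off library. Crxos had 83.5 and 90.2 RPM in J1 ESCs against 0.271 to 9.34 in the 6 tet-off ESC libraries. Ly6a had 153 and 156 against 0.0842 to 3.22, Spic 31.5 and 33.3 against 1.01 to 3.83, and AI662270 23.6 and 26.2 against 0.242 to 2.67. In L-EPSCs the J1 libraries overlapped the tet-off libraries for Crxos and Ly6a, and lay below all of them for Spic (2.16 and 3.19 against a tet-off median of 18.4) and AI662270 (at most 2.76 against 5.41 to 21.8).

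For the other 5 genes J1 stood apart in L-EPSCs. Enox1 had 79.7 and 80.5 RPM in J1 L-EPSCs against 0.0874 to 2.03 in the tet-off L-EPSCs, and Ina 47.9 and 50.0 against 1.53 to 6.34. Robo4 had 31.6 and 33.4 against 0 to 0.655, Ptgs1 27.9 and 29.9 against 0 to 0.892, and Nt5e 24.8 and 28.9 against 0.162 to 1.21. In ESCs the same genes were closer. Ptgs1, Nt5e and Robo4 overlapped between J1 and the tet-off lines, and Enox1 (11.9 and 12.9 against 18.5 to 41.5) and Ina (7.96 and 10.1 against 18.8 to 32.5) were lower in J1.

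**Figure D3:**
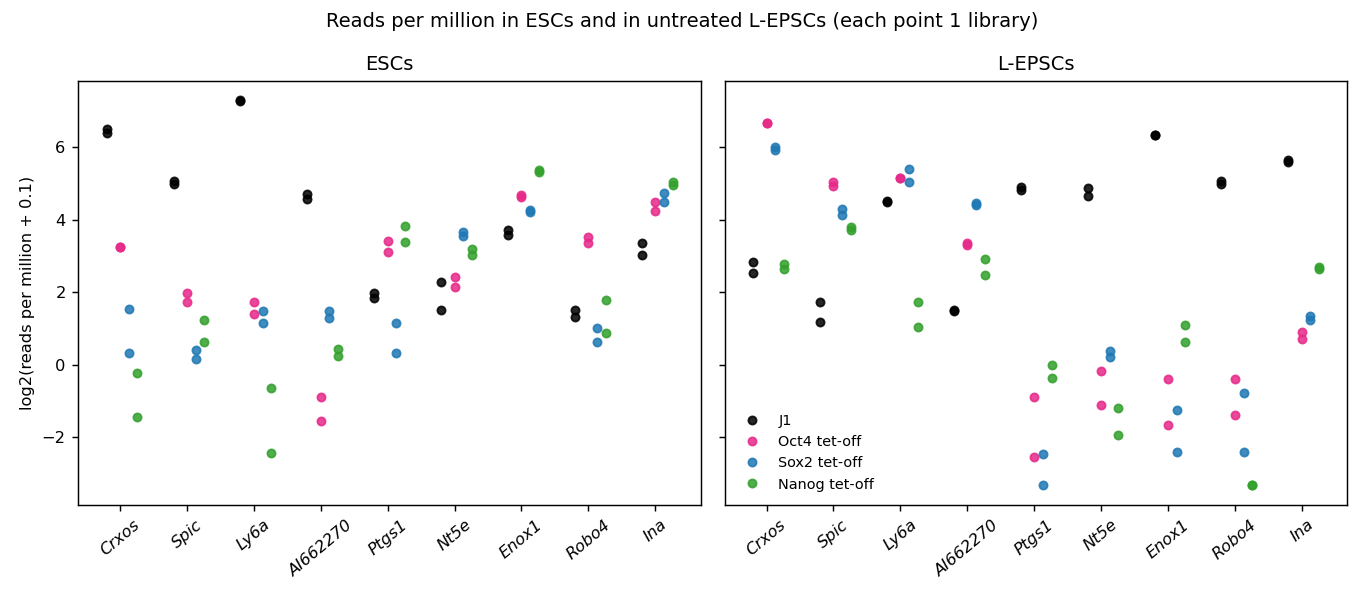
RPM, as log2 after adding 0.1, of each gene in ESCs (left) and untreated L-EPSCs (right), 1 point per library, for J1 (black) and the 3 tet-off lines. J1 is above the tet-off lines for the first 4 genes in ESCs and for the last 5 genes in L-EPSCs; the tables were processed separately.

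Markers of other cell types also differed between J1 and the tet-off lines, and their part in these results was not tested. The 14 fibroblast markers summed to 7060 and 7240 RPM in J1 ESCs, 4740 and 4770 in J1 D-EPSCs and 1680 and 1730 in J1 L-EPSCs, with 13 of the 14 above 1 RPM and Col1a1 the highest in each. In the tet-off groups the 13 listed there summed to at most 54.0, and 2 to 6 of them had 0 reads, Lum among these in 8 of the 9 groups. Ly6a and AI662270 moved in the same order as this sum within J1. Untreated L-EPSCs of the Oct4 line (35.0 and 35.4 RPM) and Sox2 line (32.7 and 41.6) held more Ly6a than J1 L-EPSCs (22.3 and 22.7). Their fibroblast sums were 39.0 and 42.3, and 24.1 and 24.2. The Nanog line held less Ly6a (3.21 and 1.95), at a sum of 32.8 and 33.9. The labels allow feeder cells or gelatin for ESCs and L-EPSCs, and the study's methods state that both EPSC types were kept without feeders for several passages before RNA was taken. The macrophage markers summed to 509 and 512 in J1 ESCs, 2290 and 2310 in D-EPSCs and 1720 and 1730 in L-EPSCs. Lyz2 was the highest in both EPSC types, and Hmox1 in J1 ESCs (132). In the tet-off groups they summed to 167 to 618, carried mainly by Hmox1 or Laptm5. Hmox1 (109 to 545) or Laptm5 (156 to 189) was the highest in each. Of the 19 listed there, 3 to 6 were above 1 RPM and 4 to 8 had 0 reads. Spic, the member known from macrophages, moved against the macrophage sum in J1. The endothelial markers summed to 198 and 205 in J1 ESCs, 110.0 and 112 in D-EPSCs and 133 and 136 in L-EPSCs. Pecam1, the highest of them in each, averaged 154, 49.3 and 71.2 RPM in these groups. It made up most of the ESC sum, so this sum is not set against Robo4. The neural markers summed to 502 in both J1 ESC libraries, 522 and 529 in D-EPSCs and 403 and 416 in L-EPSCs. Members of this list moved in different directions. Stmn2, the highest in each, averaged 162, 261 and 289 RPM in ESCs, D-EPSCs and L-EPSCs. Nefl had means of 1627, 57.0 and 348 normalized counts in these groups, Nefm 799, 15.6 and 39.3, and Nes 1047, 385 and 272. The neural sum is thus not set against Ina. In the tet-off groups the endothelial markers summed to 42.4 to 280.0 and the neural markers to 57.7 to 548. The interferon-stimulated markers summed to 1750 and 1770 in J1 ESCs, 2420 and 2430 in D-EPSCs and 1260 in both J1 L-EPSC libraries, against 167 to 1030 in the tet-off groups. The primitive endoderm markers summed to 1250 in both J1 ESC libraries, 1190 and 1210 in D-EPSCs and 707 and 714 in J1 L-EPSCs, against 461 to 1830 in the tet-off groups.

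**Figure D4:**
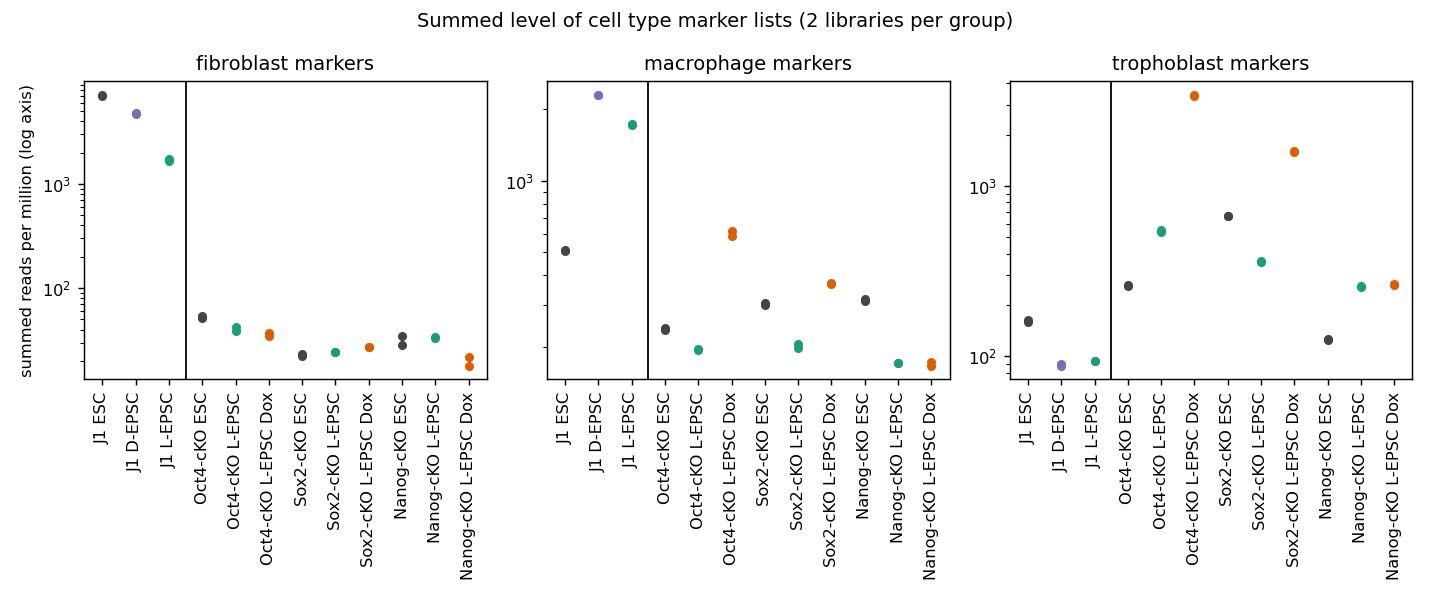
Summed RPM (log axis) of the fibroblast, macrophage and trophoblast marker lists in each group, with 1 point for each of the 2 libraries. Fibroblast markers are at 1680 or more in every J1 library and at or below 54.0 in the tet-off libraries, and trophoblast markers reach 3390 and 3440 in Dox-treated L-EPSCs of the Oct4 line.

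The J1 D-EPSCs, a second EPSC type in another medium, did not enter the choice of the genes, although each comparison with them shares a group with it. Against ESCs, 8 of the 9 genes were called, where 20.7% of all genes were. Crxos and Spic were lower still than in L-EPSCs, with 22.5 and 18.6 and with 17.4 and 18.6 normalized counts. Their log2 fold changes against ESCs were −5.78 (SE 0.161, adjusted p = 1.5e-07) and −4.53 (SE 0.228, adjusted p = 3.1e-06). AI662270 had 174 and 145 and was called lower by −1.08 (SE 0.145, adjusted p = 0.00065). Ly6a had 1443 and 1600, below both ESC libraries, but its log2 fold change of −0.46 (SE 0.0577, adjusted p = 0.00044) stayed inside the threshold of 0.6.

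Of the 5 genes that were higher in J1 L-EPSCs than in ESCs, 4 were also called higher in D-EPSCs. Ina had 1572 and 1681 normalized counts in D-EPSCs, a log2 fold change of 3.73 (SE 0.108, adjusted p = 1.7e-07), and Enox1 had 1088 and 1050, a change of 2.66 (SE 0.0636, adjusted p = 7.7e-08). Robo4 had 143 and 132 (1.96, SE 0.135, adjusted p = 1.7e-05) and Ptgs1 129 and 149.8 (1.48, SE 0.136, adjusted p = 8.4e-05). Nt5e went the other way. It had 3.06 and 8.81 in D-EPSCs against 64.7 and 36.9 in ESCs, a change of −2.98 (SE 0.442, adjusted p = 0.0011), and this call was lost without ESC replicate 1 (adjusted p = 0.067).

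Between the EPSC types, 8 of the 9 genes were called, where 13.4% of all genes were. Nt5e differed most, with a log2 fold change of 5.83 from D-EPSCs to L-EPSCs (SE 0.442, adjusted p = 5.5e-05). Crxos (2.00), Robo4 (1.65), Ptgs1 (1.47) and Spic (0.92) were also higher in L-EPSCs, and Ly6a (−2.34), AI662270 (−2.09) and Ina (−1.31) were lower. The call of Spic (adjusted p = 0.018) was lost without either D-EPSC replicate, without L-EPSC replicate 2 or with only both groups in the fit, at adjusted p-values from 0.0658 to 0.134. Enox1 did not pass, with 1088 and 1050 in D-EPSCs and 1073 and 1063 in L-EPSCs and a log2 fold change of 0.00 (SE 0.0636). The order of the 3 states thus differed among genes. D-EPSCs lay between ESCs and L-EPSCs for Ly6a, AI662270, Ptgs1 and Robo4, beyond L-EPSCs for Crxos, Spic and Ina, on the far side of ESCs for Nt5e, and level with L-EPSCs for Enox1.

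Dox shuts off the transgene of Oct4, Sox2 or Nanog in tet-off L-EPSCs. Nanog RNA fell only in part, while the study reports loss of Nanog protein on Dox. No Dox-treated J1 cells were sampled, so effects of Dox itself cannot be told apart from those of the transgene. The Dox comparison did not enter the choice, but the untreated L-EPSCs did. A log2 fold change beyond 1 was required. In the Oct4 line 4 of the 9 genes were called, 1 higher and 3 lower, beside 19.3% of all genes, and in the Sox2 line 4 as well, 1 higher and 3 lower, beside 15.1%. In the Nanog line 1 was called, beside 5.39%. The median log2 fold changes of the 9 were −0.59, −0.98 and 0.00, against 0 for all genes in each line.

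Spic fell on Dox in the Sox2 line from 239 and 215 to 67.6 and 63.8 normalized counts (log2 fold change −1.77, SE 0.202, adjusted p = 2e-06). In the Nanog line it fell from 164 and 172 to 43.9 and 36.0 (−2.05, SE 0.202, adjusted p = 1.1e-06). Both calls held in all 12 alternatives. In the Oct4 line it had 249.9 and 266 on Dox against 407 and 374 without, a change of −0.59 (SE 0.202, adjusted p = 0.025) inside the threshold. That response differed from those in the Sox2 line, by 1.17 (SE 0.285, adjusted p = 0.0055), and in the Nanog line, by 1.46 (SE 0.285, adjusted p = 0.00067).

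Ly6a fell on Dox in the Sox2 line from 404 and 513 to 57.7 and 39.3 (−3.23, SE 0.487, adjusted p = 4.2e-05) and in the Oct4 line from 435 and 437 to 134 and 125 (−1.74, SE 0.487, adjusted p = 0.0076). The call in the Oct4 line was lost without either untreated replicate or without Dox replicate 2, at adjusted p-values from 0.053 to 0.0615, with log2 fold changes from −1.75 to −1.70. In the Nanog line it had 13.2 and 32.6 on Dox and 40.5 and 24.5 without, which overlapped. Crxos, the homeobox gene of this group, was called in none of the 3 lines: it had 1072 and 1097 on Dox against 1265 and 1248 in the Oct4 line, 776 and 828 against 796 and 748 in the Sox2 line, and 150.2 and 142 against 76.7 and 84.6 in the Nanog line (0.85, SE 0.326, adjusted p = 0.073). AI662270 had 147 and 121 on Dox against 259 and 268 in the Sox2 line, a change of −0.98 (SE 0.26, adjusted p = 0.006) just inside the threshold. It passed the threshold with median centring and without Dox replicate 1 (−1.12) or untreated replicate 1.

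Ina fell further from its low L-EPSC level in the Oct4 line, from 22.2 and 18.9 to 8.06 and 5.55 (−1.48, SE 0.231, adjusted p = 5.1e-05). In the Sox2 line it fell from 28.1 and 29.9 to 10.7 and 16.4 (−1.07, SE 0.231, adjusted p = 0.0012), a call that was lost without Dox replicate 1 (−0.79) and with only both groups in the fit (adjusted p = 0.0511). In the Nanog line it had 112 and 144 on Dox against 79.9 and 76.5, a change of 0.69 (SE 0.231, adjusted p = 0.038) inside the threshold. The response in the Nanog line differed from those in the Oct4 line, by −2.17 (SE 0.326, adjusted p = 5.6e-05), and in the Sox2 line, by −1.76 (SE 0.326, adjusted p = 5e-04).

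The remaining calls rest on few reads. Nt5e was called higher on Dox in the Oct4 line, where it had 15 and 47 reads on Dox and 11 and 5 without (2.02, SE 0.475, adjusted p = 0.0022), and the 2 Dox libraries lay far apart. Without Dox replicate 2, the higher, the change was 1.25 (adjusted p = 0.0486), and with only both groups in the fit the call was lost (adjusted p = 0.0673). Robo4 had 0 reads in both Dox libraries of the Oct4 line and 4 and 9 without, at least 1.71-fold lower against the floor (adjusted p = 0.0014). Enox1 was called higher in the Sox2 line with 10 and 14 reads on Dox and 1 and 4 without (1.74, SE 0.667, adjusted p = 0.0496), and 7 of the 12 alternatives lost this call. Ptgs1 had 3 reads in each Dox library of the Nanog line and 8 and 11 without (adjusted p = 0.11), which edgeR and DESeq2 called (adjusted p = 0.043 and 0.048). Robo4 had no read in the 4 L-EPSC libraries of the Nanog line, so it has no fold there.

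**Figure D5:**
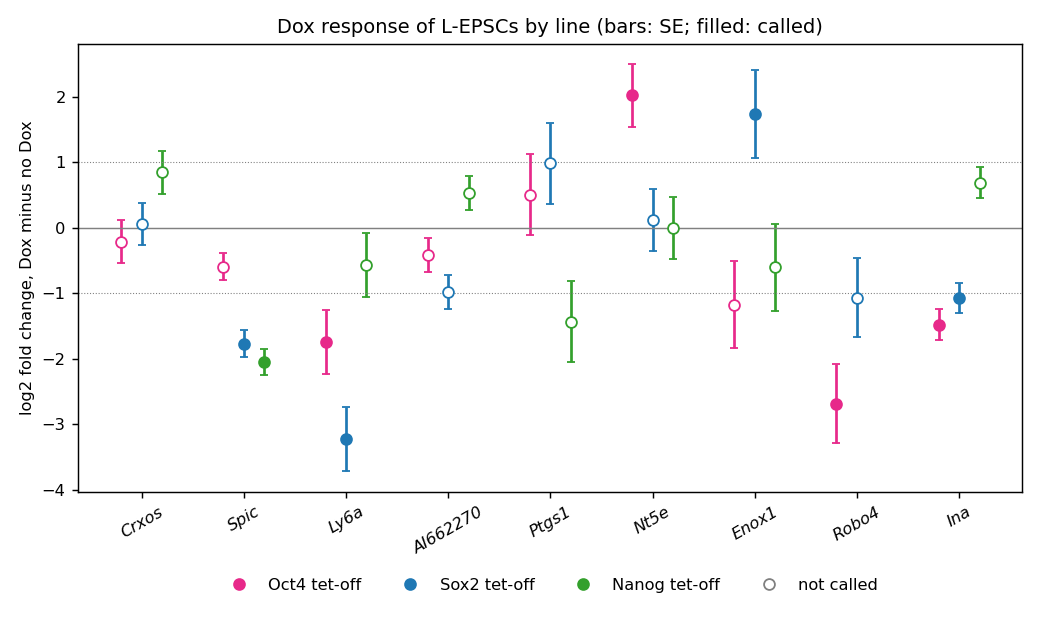
Log2 fold change on Dox in L-EPSCs of each tet-off line, with bars for the SE of the limma fit and dotted lines at the threshold of 1. Filled points were called. Spic is filled in the Sox2 and Nanog lines, Ly6a and Ina in the Oct4 and Sox2 lines, and Crxos and AI662270 in none; Robo4 in the Nanog line, at 0 reads, is left out.

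Over all 9 genes, the Dox response differed between the Oct4 and Sox2 lines for 3 genes (6.81% of all genes), between the Oct4 and Nanog lines for 4 (14.8%) and between the Sox2 and Nanog lines for 4 (11.3%). The trophoblast markers summed to 539 and 549 RPM in untreated L-EPSCs of the Oct4 line and to 3390 and 3440 on Dox. In the Sox2 line they went from 358 and 365 to 1590 and 1600, and in the Nanog line from 254 and 257 to 261 and 266. Their part in the responses of the 9 genes was not tested.

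Relatives of the 9 genes were followed through lists of their families and pathways. Of all 24007 genes tested, 2047 were called higher and 2590 lower on Dox in the Oct4 line (19.3% in either direction). In the Sox2 line 1870 were higher and 1758 lower (15.1%), and in the Nanog line 672 and 621 (5.39%). The opposite pattern was held by 2.19% of genes tested in both tables. The counts of each list stand beside these shares. Among the 13 other ectonucleotidase and adenosine genes tested in both tables, Enpp3 and Slc29a1, an ectophosphatase and a nucleoside transporter, were called in the same opposite pattern as Nt5e. Enpp3, like Ptgis among the prostanoid genes, was singled out after its values were seen. Enpp3 had log2 fold changes of 4.31 in J1 and −1.30, −1.94 and −1.23 in the Oct4, Sox2 and Nanog lines, and Slc29a1 of 1.33, −0.90, −0.67 and −0.66. On Dox, 3 of 15 others were higher and 1 lower in the Oct4 line (Entpd1, which removes phosphates from ATP, at 2.64 and Enpp1 at 1.97), 3 were higher in the Sox2 line, and 1 was lower in the Nanog line. The list medians were 0.37, −0.05 and −0.12, where the median of all genes was 0 in each line.

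Of the 17 other prostanoid genes, Ptgis, the prostacyclin synthase, had the pattern of Ptgs1 at 1.66 in J1 and −1.57, −1.27 and −2.16 in the tet-off lines. On Dox, 3 were higher and 1 lower in the Oct4 line (Hpgd, which breaks prostaglandins down, at 1.94 and the thromboxane receptor Tbxa2r at −2.13), 3 were higher and 3 lower in the Sox2 line, and 1 was higher in the Nanog line, with list medians of 0, 0 and −0.14. None of the 10 other Slit and Robo genes shared the pattern of Robo4. They had 4 lower on Dox in the Oct4 line (Robo1 at −1.98 and Slit2 at −1.44), 2 higher and 3 lower in the Sox2 line, and 1 each way in the Nanog line, with list medians of −1.03, −0.48 and −0.05.

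Of the 8 other intermediate filament genes, Nefh moved like Ina (1.08 in J1 and −2.50, −1.02 and −2.35), and Nes, a neural stem cell filament, moved the other way (−1.94 and 0.75, 1.33 and 1.36). On Dox 5 of the 8 were lower in the Oct4 line, with Vim at −1.34 and Nefl at −2.53, 1 was higher and 2 lower in the Sox2 line, and 2 were lower in the Nanog line, with list medians of −1.48, −0.35 and −0.33. None of the other Ly6 family genes was called in the opposite pattern of Ly6a. On Dox, 5 of 20 were lower in the Oct4 line, 6 in the Sox2 line and 1 in the Nanog line, and none was called higher, with list medians of −0.55, −1.04 and −0.19. Ly6g6e had −3.97 and −5.49 in the first 2 of these lines.

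Of the 22 other Ets genes tested in both tables, Etv4 and Etv1, which are known ERK targets, were called oppositely, in the direction against Spic (Etv4 at 3.17 in J1 and −1.70, −1.14 and −2.40). On Dox, 8 of 23 were higher and 4 lower in the Oct4 line, 7 higher and 3 lower in the Sox2 line, and 2 higher and 1 lower in the Nanog line. Etv4 was lower in all 3 (−4.69, −4.36 and −2.75), and Spi1 was higher in all 3 (1.99, 1.35 and 1.49). The list medians were 0.39, 0.07 and −0.01. Among the 15 other paired-like homeobox genes tested in both, Gsc and Hesx1 moved with Crxos (Gsc at −4.81 in J1 and 2.56, 2.92 and 1.81), and Otx2 against it (2.24 and −0.66, −0.90 and −1.93). On Dox, 3 of 16 were higher and 8 lower in the Oct4 line, 3 higher and 6 lower in the Sox2 line, and 4 higher and 2 lower in the Nanog line, with Rhox6 and Rhox9 higher in all 3. The list medians were −0.99, −0.64 and −0.01.

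The nearest listed genes on each side of the 9 were 18 genes at 1646 to 596352 bases. Of the 18, 2 were called oppositely in J1 and all 3 tet-off lines, where 2.19% of all genes tested in both tables were. Gm11427, at 27592 bases from AI662270, had −3.71 in J1 and 5.91, 3.35 and 2.05 in the Oct4, Sox2 and Nanog lines. Gm13431, at 7492 bases from Ptgs1, had 2.90 in J1 and −3.69, −1.43 and −3.91, at mean levels of 10.2 and 3.92 normalized counts in the J1 and tet-off tables. Robo3, at 1646 bases from Robo4, was called higher in J1 (1.43) and lower in the Nanog line (−2.28), but not in the Oct4 (−1.85) or Sox2 line (−0.07). Ly6c1, next to Ly6a, was called lower in J1 (−2.43) and higher in the Sox2 line (3.27), but not in the Oct4 (1.67) or Nanog line (0.19).

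Over the 24 libraries, with log2 levels centred within each table, Pearson's r between the members was 0.597 to 0.839 for the 6 pairs among Crxos, Spic, Ly6a and AI662270, 0.218 to 0.891 for the 10 pairs among the other 5, and −0.93 to −0.257 for the 20 pairs between them. The choice of the genes fixes these signs in part, and libraries of a group share their culture. Among 13256 other genes that averaged 10 or more normalized counts in each table, the 3 most alike were Reep1, Tpd52l1 and Dcbld2 for Crxos (r = 0.949, 0.944 and 0.943), Aqp3, Usp46 and Scd1 for Spic (0.933, 0.926 and 0.916) and Htra1, Capn6 and Smim14 for Ly6a (0.943, 0.935 and 0.916). For AI662270 they were its neighbour Gm11427 (0.963), Fam168b (0.931) and Gadd45b (0.922). Those of Ptgs1 were Soga3, Nup153 and Utp25 (0.925, 0.917 and 0.912), those of Enox1 Nr1d2, Sned1 and Fbxl18 (0.967, 0.955 and 0.954), those of Robo4 Zfp760, Enc1 and Zfp874b (0.931, 0.931 and 0.918), and those of Ina Ccdc102a, Bcl6b and Plch1 (0.953, 0.952 and 0.951). Nt5e had the least close ones, Gmfg, Bbs12 and Thap12 (0.855, 0.835 and 0.827).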

How the data were processed

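Poly(A) RNA libraries (Universal Plus mRNA-Seq) of 24 samples in 12 groups of 2 were used. Per the labels' processing notes, reads were trimmed with Trim Galore 0.6.4, aligned to NCBIM37 (mm9) with STAR 2.7.9a, counted per gene with HTSeq 0.11.2 and scaled with DESeq2 (listed as version 4.1.1). The deposited signal values are gene counts that the authors divided by a size factor of each library, in separate tables for J1 (23095 genes) and the tet-off lines (25476 genes). Values of each column were whole multiples of the worth of 1 read within a tolerance of 0.1, so whole reads were recovered.

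Genes with at least 2 reads in total (21533 and 24007) were fitted on log2(value + 1) with limma 3.58.1 (trend) in R 4.3.3, all groups of a table in 1 fit, with Benjamini-Hochberg adjustment over all genes. A gene was called at an adjusted p of 0.05 and a log2 fold change beyond 0.6 (J1, ESC to L-EPSC) or 1 (Dox and differences of Dox responses). Tests were made within a table only, since scaling was separate. A floor of 3 reads per library, which covers counting error only, bounded folds against groups at 0. The fold change of a low gene depends on the pseudocount.

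The members and the lists of relatives and markers were chosen with earlier results of these data known. Beside the 9 members, the text names some of the relatives called on Dox, or at most 3 a list for the highest mean, nearest genes, the 3 most correlated genes and genes next to the members in rank. Enpp3 and Ptgis met neither rule for relatives and were named for their opposite pattern, after their values were seen. The lists were ectonucleotidase and adenosine, prostanoid, Slit and Robo, intermediate filament, Ly6, Ets and paired-like homeobox genes, and markers of fibroblasts, macrophages, endothelium, neural cells, primitive endoderm, trophoblast, pluripotent cells and interferon response.

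Alternatives were edgeR 4.0.16 and DESeq2 1.42.0 on recovered reads, scaling by TMM or to equal medians, a filter on a mean of at least 10, a pseudocount of 0.1, fits of only the groups compared, a fold threshold of 0.6 in place of 1 or 1 in place of 0.6, a replicate block and leaving out each replicate. Same-numbered samples did not deviate together (r from −0.0214 to 0.0242 over 9 pairs of groups), so the numbers were not taken as pairs. The fit was also run on simulated data with changes placed only in better expressed genes, so that run does not cover calls on few reads. Tables and plots were made with Python 3.11.15, pandas 2.3.3, NumPy 2.4.6 and matplotlib 3.10.9.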

Additional observations from a re-analysis of the deposited data

Results flagged for a closer look

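Differences of the Dox response between lines were tested by limma as a term of the fit, and those called are given here. Spic changed less on Dox in the Oct4 line than in the Sox2 line (difference of the log2 fold changes 1.175, adjusted p = 0.0055) or the Nanog line (1.458, adjusted p = 0.00067). Ina fell in the Oct4 and Sox2 lines while its libraries were higher on Dox in the Nanog line, with differences of −2.168 (adjusted p = 5.6e-05) and −1.762 (adjusted p = 5e-04). AI662270 differed between the Sox2 and Nanog lines by −1.509 (adjusted p = 0.0047). These 5 differences were called in all 16 alternatives run for each.

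Ly6a differed between the Sox2 and Nanog lines by −2.655 (adjusted p = 0.0072), called in 14 of 16 alternatives. The remaining differences rest on few reads. Nt5e differed between the Oct4 and Sox2 lines by 1.907 (adjusted p = 0.0495) and between the Oct4 and Nanog lines by 2.024 (adjusted p = 0.028), called in 7 and 10 of 16 alternatives. Enox1 differed between the Oct4 and Sox2 lines by −2.908 (adjusted p = 0.033), called in 9 of 16. Robo4 differed between the Oct4 and Nanog lines by −2.685 (adjusted p = 0.021), called in 13 of 16, where the Nanog L-EPSC libraries had 0 reads with and without Dox and so could not fall. Ptgs1 differed between the Sox2 and Nanog lines by 2.42 (adjusted p = 0.0475), called in 4 of 16.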

How the results depend on the processing

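Counts of called members depended on settings where genes had few reads. On Dox, 2 members were called in the Sox2 line with only the groups compared in the fit, and 2 in the Nanog line with edgeR, with DESeq2, with a mean of at least 10 and with a looser fold threshold of 0.6 in place of 1. With a stricter threshold of 1 in place of 0.6, 216 genes had the opposite pattern. Leaving out 1 replicate gave 3 to 4 called members on Dox in the Oct4 line, 3 to 5 in the Sox2 line and 1 in the Nanog line, 7 to 8 in either D-EPSC comparison, and 360 to 440.0 opposite genes. For differences of Dox responses it gave 1 to 3 between the Oct4 and Sox2 lines (1 without either Sox2-line Dox replicate, its untreated replicate 1 or untreated Oct4-line replicate 2), 3 to 5 between the Oct4 and Nanog lines, and 2 to 4 between the Sox2 and Nanog lines (2 without Nanog-line Dox replicate 2). With the replicate block, the counts were 4, 4, 1, 8 and 8 for Dox in the Oct4, Sox2 and Nanog lines and the D-EPSC comparisons with ESCs and L-EPSCs, 2, 4 and 4 for the differences, and 448 opposite genes.

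Of 704 single values under other settings, 625 kept direction and call, 57 lost the call, 8 gained it and 14 changed sign, all 14 of them uncalled. With median centring, the Dox change of Crxos in the Sox2 line was −0.01122 and that of Nt5e in the Nanog line 0.005033, and the latter was 0.01302 with a pseudocount of 0.1. Enox1 between L-EPSCs and D-EPSCs was 0.005353 with edgeR, 0.005025 with TMM and 0.01797 with median centring. Without 1 replicate, Enox1 there ranged from −0.02586 to 0.0241. On Dox, Ptgs1 (−0.375 to 1.384) and Enox1 (−2.528 to 0.1835) in the Oct4 line, Nt5e in the Sox2 line (−0.002934 to 0.229), and Ly6a (−1.197 to 0.04797) and Nt5e (−0.4 to 0.3916) in the Nanog line did so too. The cause was not tested. A group left with 1 library was assumed to vary like the others. Counting error is largest for genes with few reads, such as Ptgs1, Robo4 and Enox1 in tet-off L-EPSCs.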
